A study of Mus musculus with 8 samples.

Results

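Transforming growth factor beta (TGF-beta), the bone morphogenetic proteins (BMPs), the growth and differentiation factors (Gdf genes) and the activins form one family of secreted ligands. A ligand brings type II and type I receptor kinases together, and the type I receptor phosphorylates Smad proteins, which join Smad4 and enter the nucleus. In the embryonic cortex BMP signals turn on Id genes and favour astrocyte over neuronal fates, while Noggin and Chordin bind BMPs outside the cell and follistatin (Fst) binds activins. The genes described here were chosen by their symbols in the array's probe annotation, as ligands, receptors, Smads, latency proteins and antagonists of this family, and not by their values. They were 57 genes with 64 probes, among 15094 named genes and 21582 probes on the array.

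The cultures were cortical neurospheres, stem and progenitor cells grown as free spheres, from mice at gestational day 12.5. Exposed cultures received 320 mg/dl ethanol for 5 days in medium with basic FGF, EGF and LIF, and were then differentiated for 3 days without ethanol by leaving out EGF and LIF. Control cultures were differentiated in the same way with no ethanol, and FGF was kept in both. Each of 8 arrays carried RNA of both conditions, with ethanol-exposed RNA in Cy3 on replicates 1 to 4 and in Cy5 on replicates 5 to 8. The labels name no strain, sex or number of animals, and do not say which arrays came from separate cultures, so p-values measure the spread between arrays.

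The deposited values were log2 ratios of the 2 channels, and no source used here says which channel was the numerator. Each probe's ratios, centred on the array median, were therefore described by 2 numbers. The shared part averages the orientations, and would carry the ethanol effect if one condition was divided by the other. The turning part is the distance of each orientation's mean from that midpoint, positive where the ratio was higher with ethanol in Cy5, and would carry it if one dye was divided by the other. The part that does not carry the ethanol effect would carry differences between the dyes instead. Which part carried the ethanol effect was not tested. A value in either part is therefore not by itself an ethanol effect, and the signs give no direction of that effect. In RNA from whole cultures, fewer cells of a type and less RNA per cell cannot be told apart.

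Across the arrays 16274 to 18802 probes had a computable ratio, and the 15345 probes that had 3 or more values in both orientations were tested. Ratios carry no level, so the cultures could not be checked for which markers they express. A ratio was computable on all 8 arrays for 9 of 10 neural progenitor markers, 6 of the 11 neuron markers and 5 of the 8 astrocyte markers on the array, and for 4 of 13 markers of endothelial, immune and fibroblast cells.

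Of the 64 probes 56 were tested, covering 50 genes, and 45 had values on all 8 arrays. The 8 untested probes had values on 2 to 5 arrays. They were the only probes of the type I receptors Tgfbr1 and Acvr1b, of Bmp15, Gdf10, Inhbc, Ltbp1 and Tgfb1i1, and a second probe of Skil. No member passed an adjusted p of 0.05 in either part (limma with Benjamini-Hochberg adjustment over all tested probes). Over all probes 0% passed in the shared part and 1.56% in the turning part. At an unadjusted p under 0.05 there were 9 of 56 members in the shared part, where 13.9% of all probes reached it, and 6 of 56 in the turning part, where 13.8% did. Both counts were near the share of all probes.

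In size the members were also much like other probes. A shared part of 2-fold or more was seen in 11 members (19.6%, against 15.2% of all probes), and a turning part of that size in 7 (12.5%, against 15.6%). The median size of the shared part was 0.45 on the log2 scale for the members and 0.44 for all probes, and that of the turning part was 0.42 and 0.41. The median SD over arrays was 1.17 for members and 1.35 for all probes. The 95% interval of a member's shared part, which is not adjusted for the number of probes, reached a median of 0.92 to each side. A change of less than about 1 log2 unit thus often could not be told from 0 even before adjustment. After adjustment larger values did not pass either, as with the tested Skil probe at -1.97 (adjusted p = 0.232). The signs leaned to the negative side. In the shared part 41 of 56 members were negative (73.2%, against 53.9% of all probes) and 15 positive (26.8%, against 46.1%), with a median of -0.17 against -0.06, and the count was 32 of 56 without replicate 2 and without replicate 5. The median was -0.075 without replicate 2, where that of all probes was -0.05, and ran to -0.29 without replicate 6. In the turning part 35 of 56 were negative (62.5%, against 43.1%) and 21 positive (37.5%, against 56.9%), with a median of -0.16 against 0.11. The count was 32 to 37 of 56 without single arrays, and 32 of 64 with exact 0 kept as a value. Without centring the members' turning median was 0.16 and that of all probes 0.42, so its sign depended on the centring, while the members stayed 0.27 below all probes under both. Without replicate 2 the members minus all probes came to -0.16 and the members' median -0.059. These counts describe the list and were not tested.

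**Figure D1:**
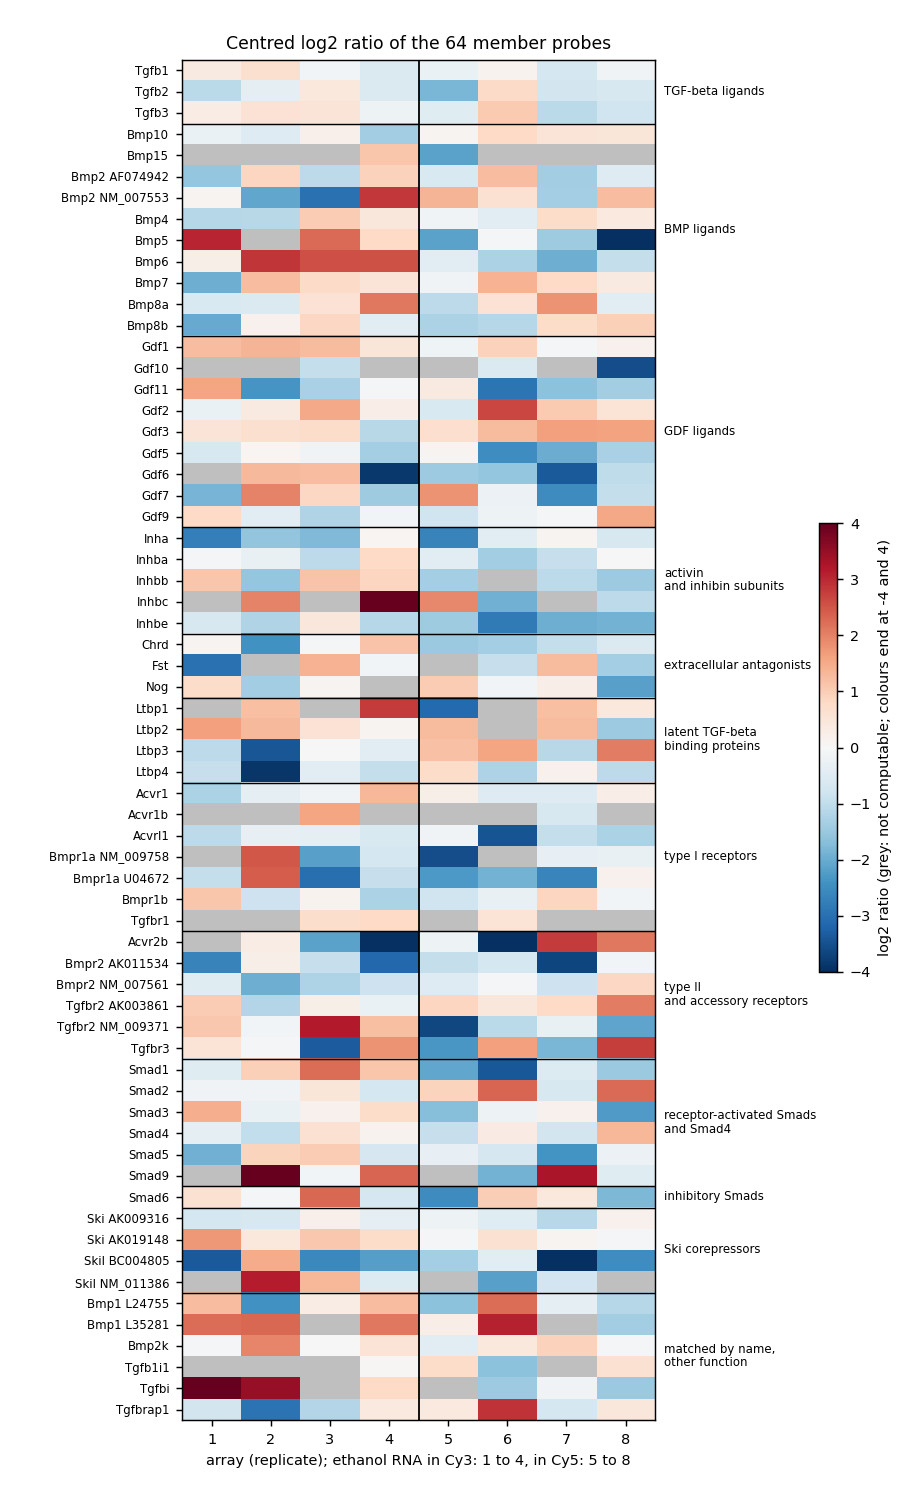
Centred log2 ratio of each of the 64 probes (rows, grouped by role) on the 8 arrays (columns, ethanol in Cy3 left of the line and in Cy5 right of it). Grey cells had no computable ratio. Few rows keep 1 colour over all arrays, and Bmp5, Bmp6 and Tgfbi change from red to blue at the line.

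**Figure D2:**
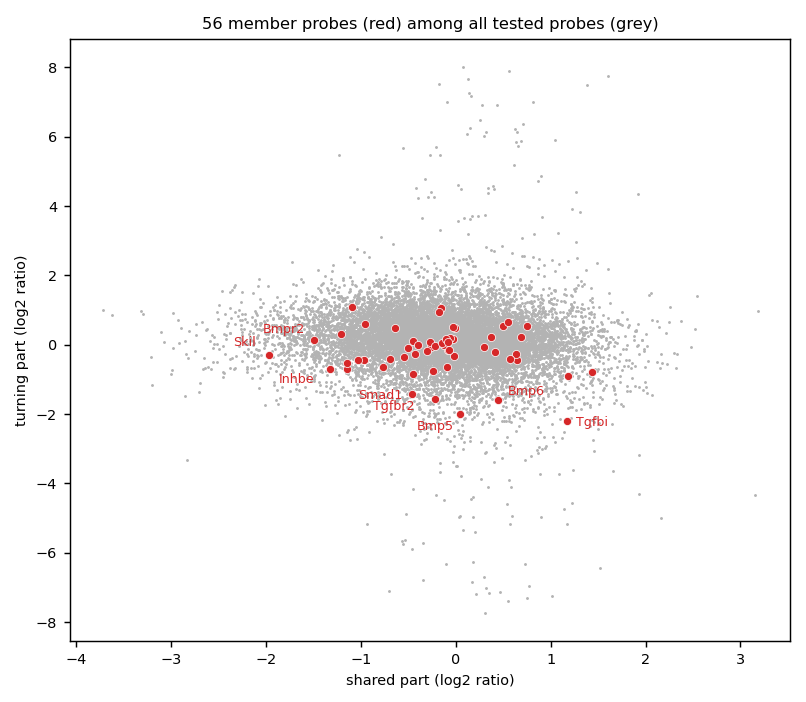
Shared part (x axis) against turning part (y axis), both log2 ratios, of the 56 tested member probes in red among all 15345 tested probes in grey. The members lie within the central cloud, with Skil at the lowest shared part, -1.97, and Tgfbi at the lowest turning part, -2.19.

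For the members with the smallest p-values, the sequence around the annotated transcription start is shown (RefSeq, GRCm38.p6), since genes of this family can themselves be Smad targets. The first pair had the smallest p in the shared part among members with an entry, Inhbe (chr10:127351799-127352098, minus strand) and Bmpr2 (chr1:59764029-59764328, plus strand). The second pair had the smallest p in the turning part, Bmp6 (chr13:38345466-38345765, plus strand) and Bmp5 (chr9:75775115-75775414, plus strand). Each is printed in the direction of transcription, with capitals at matches, on either strand, to GGCGCC, a motif of BMP-responsive elements, or to CAGAC, which holds the core bases that Smads bind.
Inhbe: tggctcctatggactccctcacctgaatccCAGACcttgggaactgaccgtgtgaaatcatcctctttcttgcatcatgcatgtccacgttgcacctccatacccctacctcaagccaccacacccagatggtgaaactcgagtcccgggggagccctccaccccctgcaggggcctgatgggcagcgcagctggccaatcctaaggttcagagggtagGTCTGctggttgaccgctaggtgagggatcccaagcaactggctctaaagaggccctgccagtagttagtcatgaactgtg
Bmpr2: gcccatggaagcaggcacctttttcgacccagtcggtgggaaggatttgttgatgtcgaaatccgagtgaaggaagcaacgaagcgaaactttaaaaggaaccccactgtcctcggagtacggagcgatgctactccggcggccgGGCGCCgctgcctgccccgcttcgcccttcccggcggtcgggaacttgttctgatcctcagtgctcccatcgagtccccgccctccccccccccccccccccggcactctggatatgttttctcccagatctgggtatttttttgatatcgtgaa
Bmp6: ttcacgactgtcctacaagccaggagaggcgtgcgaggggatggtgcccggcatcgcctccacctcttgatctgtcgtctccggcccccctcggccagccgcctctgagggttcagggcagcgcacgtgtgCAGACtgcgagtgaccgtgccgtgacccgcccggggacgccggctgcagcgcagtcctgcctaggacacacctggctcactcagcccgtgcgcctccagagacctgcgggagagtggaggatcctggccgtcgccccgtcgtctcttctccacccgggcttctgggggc
Bmp5: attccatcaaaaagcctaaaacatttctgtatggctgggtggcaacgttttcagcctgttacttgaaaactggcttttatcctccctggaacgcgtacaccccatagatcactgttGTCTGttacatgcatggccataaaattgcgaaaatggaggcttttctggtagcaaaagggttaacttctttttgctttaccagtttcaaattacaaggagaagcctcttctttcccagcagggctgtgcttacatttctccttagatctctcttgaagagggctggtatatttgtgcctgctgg
The Bmpr2 sequence holds 1 GGCGCC, Inhbe 2 matches to CAGAC, and Bmp6 and Bmp5 1 each. Over all 32851 sequences of the same length 11.9% hold GGCGCC and 49.6% hold CAGAC. The motifs do not overlap here, and a match is a description of the letters only.

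The TGF-beta ligands had narrower intervals than the members as a whole, with a median of 0.72 to each side in the shared part against 0.92. Tgfb1 read 0.35, 0.64, -0.10 and -0.58 with ethanol in Cy3 and -0.28, 0.14, -0.69 and -0.14 with ethanol in Cy5. The orientations overlapped, and its shared part of -0.08 had a 95% interval of -0.71 to 0.55, with a turning part of -0.16 (-0.79 to 0.47). Tgfb3 had a shared part of -0.02 ± 0.32 (SE, n = 8 arrays) and a turning part of -0.32 ± 0.32. Tgfb2, which had the smallest p of the 3 ligands, read -1.09, -0.35, 0.44 and -0.57 with ethanol in Cy3 and -1.83, 0.78, -0.73 and -0.63 with ethanol in Cy5. It was negative on 6 of 8 arrays, and its shared part of -0.50 ± 0.35 did not pass (adjusted p = 0.539) and was -0.29 without replicate 5.

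Among the BMP ligands Bmp6 and Bmp5, close relatives of Bmp7, stood on opposite sides in the 2 orientations after centring. Bmp6 read 0.23, 2.87, 2.57 and 2.55 with ethanol in Cy3, and -0.44, -1.26, -1.96 and -0.95 with ethanol in Cy5. All 4 values were positive in one orientation and all 4 negative in the other, and replicate 1 lay well below the other arrays of its orientation. Before centring replicate 1 was negative and slightly below replicate 5, so neither the opposite signs nor the separation held. The centred means were 2.05 ± 1.22 and -1.15 ± 0.63 (SD, n = 4 each). Its turning part was -1.60 ± 0.37 (adjusted p = 0.0694, the smallest of any member) and did not pass. It passed without replicate 1 (-1.91, adjusted p = 0.0239) and when only probes with values on all 8 arrays were tested (-1.60, adjusted p = 0.0445), and its adjusted p over 19 alternatives ran from 0.0239 to 0.468.

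Bmp5 had no value on replicate 2. It read 3.05, 2.27 and 0.79 on the other arrays with ethanol in Cy3, and -2.14, -0.05, -1.44 and -4.17 with ethanol in Cy5. The orientations did not overlap, before centring as well, though replicate 6 lay close to 0 and was positive before centring. The 0.79 on replicate 4 was the value of equal channels before the constant that the array's deposited values carry. The turning part was -1.99 ± 0.52 (n = 7 arrays, adjusted p = 0.116). Bmp7, the third of these relatives, had a turning part of 0.23 ± 0.40, with values from -1.95 on replicate 1 to 1.39 on replicate 6. The other BMP ligands showed no like pattern. Their turning parts were 0.48 for Bmp10, 0.17 for Bmp4, 0.09 for Bmp8b and -0.07 for Bmp8a, and -0.05 and 0.50 on the 2 Bmp2 probes. In the shared part the 9 tested BMP ligand probes lay between -0.27 and 0.45, and none had an unadjusted p under 0.05. The probes whose ratios followed Bmp6 most closely over the 8 arrays, of 10441 compared, were Sod2 (r = 0.985), the unnamed probe M91700 (r = 0.978), Igh-VS107 (r = 0.965), Apoc4 (r = 0.955) and Tmem114 (r = 0.944). A correlation takes no account of size. The turning parts of these probes ran from -1.15 for M91700 to -0.25 for Igh-VS107, against -1.60 for Bmp6. They were picked as the highest and the arrays share their dye orientation, so the values are a description.

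The GDF ligands held members on both sides in the shared part. Gdf1, a ligand of the Nodal pathway, read 1.24, 1.37, 1.26 and 0.49 with ethanol in Cy3 and -0.18, 0.91, -0.05 and 0.16 with ethanol in Cy5. It was positive on 6 of 8 arrays and, after centring, higher on most arrays of the first orientation, with a shared part of 0.65 ± 0.28 (adjusted p = 0.347). On replicates 5 and 7 its channels were equal before the constant that each array's deposited values carry, and Nodal had the same values there. Its signs on these arrays thus hold no difference between the channels. Gdf3, a relative acting in early embryos, read 0.51, 0.64, 0.73 and -1.10, then 0.66, 1.28, 1.63 and 1.61. Only replicate 4 was negative, and the shared part was 0.75 ± 0.32 (adjusted p = 0.338).

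Gdf5, known from joint development, was on the other side. It read -0.65, 0.09, -0.13 and -1.36 with ethanol in Cy3 and 0.10, -2.47, -1.99 and -1.29 with ethanol in Cy5. It was negative on 6 of 8 arrays, with a shared part of -0.96 ± 0.36 (adjusted p = 0.283). The other 5 tested GDF probes did not reach an unadjusted p under 0.05 in either part. In the shared part Gdf11, a regulator of neurogenesis, was at -0.97 ± 0.49 and Gdf6 at -1.14 ± 0.65. Gdf7, a roof plate ligand of the neural tube, was at -0.30 ± 0.55, Gdf9 at -0.05 ± 0.36 and Gdf2 at 0.69 ± 0.39.

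The activin and inhibin subunits were negative in the shared part on all 4 tested probes, with a median of -0.83. Of all probes 53.9% were negative in that part. Inhbe, an activin subunit best known from liver, read -0.63, -1.22, 0.46 and -1.16 with ethanol in Cy3 and -1.43, -2.81, -1.94 and -1.89 with ethanol in Cy5. It was negative on 7 of 8 arrays. After centring it was lower on every array of the second orientation than on any of the first, though not before. Its shared part was -1.33 ± 0.32 (95% interval -2.03 to -0.62, adjusted p = 0.179, the smallest of any member in that part), and its turning part -0.69 ± 0.32 (adjusted p = 0.375).

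Inha, the subunit that turns activin into inhibin, read -2.73, -1.59, -1.75 and 0.07, then -2.67, -0.43, 0.12 and -0.64. Replicates 4 and 7 were slightly positive and the orientations overlapped, with a shared part of -1.20 ± 0.41 (adjusted p = 0.258). Inhbb, the subunit of activin B, read 1.12, -1.54, 1.15 and 0.85 with ethanol in Cy3 and -1.37, -1.05 and -1.45 on the 3 arrays with a value in the other orientation. Replicate 2 alone made the orientations overlap, and the turning part was -0.84 ± 0.41 (n = 7 arrays, adjusted p = 0.406). Inhba, of activin A, had a shared part of -0.43 ± 0.32.

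The antagonists were also negative in the shared part on all 3 probes, where 53.9% of all probes were negative, and none passed. Chrd, which encodes Chordin, read 0.10, -2.41, -0.04 and 1.15 with ethanol in Cy3 and -1.48, -1.36, -0.96 and -0.57 with ethanol in Cy5. It was negative on 6 of 8 arrays, at -0.70 ± 0.40 (adjusted p = 0.458), and at -0.34 without replicate 2. The shared part of Nog, which encodes Noggin, was -0.22 ± 0.46 on 7 arrays and that of Fst -0.45 ± 0.63 on 6 arrays. Their 95% intervals were wide, from -1.26 to 0.83 and from -1.90 to 1.00.

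The latent TGF-beta binding proteins hold the ligand in the matrix until it is released. Ltbp3 read -1.05, -3.41, 0.00 and -0.43 with ethanol in Cy3, and 1.18, 1.57, -1.11 and 2.03 with ethanol in Cy5. Replicate 7 made the orientations overlap. Its turning part of 1.07 ± 0.47 (adjusted p = 0.353) was the only positive one of the 6 members at an unadjusted p under 0.05. Ltbp4 read -0.93, -3.90, -0.43 and -0.96, then 0.73, -1.24, 0.18 and -1.05, and its lowest value, like that of Ltbp3, was on replicate 2. Its shared part was -0.95 ± 0.44 (adjusted p = 0.37). Without replicate 2 that value was -0.56, and the turning part of Ltbp3 was 0.71. Ltbp2 was at 0.64 ± 0.43 in the shared part on 7 arrays.

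All 5 tested type I receptor probes were negative in the shared part, where 53.9% of all probes were. Acvrl1, the BMP9 and BMP10 receptor of endothelial cells, read -1.05, -0.34, -0.40 and -0.62 with ethanol in Cy3 and -0.15, -3.46, -0.96 and -1.25 with ethanol in Cy5. After centring it alone of the members had the same sign on every array. Of all probes 3.57% had it, 1.82% positive and 1.75% negative. Before centring replicate 5 of Acvrl1 was positive, and its lowest value was on replicate 6. Its shared part was -1.03 ± 0.38 (adjusted p = 0.282). The BMP receptor Bmpr1a was negative on both probes, at -0.76 ± 0.70 on 6 arrays and -1.14 ± 0.56 on 8, and neither passed. Bmpr1b, another BMP type I receptor of neural progenitors, stood at -0.15 ± 0.35 and Acvr1 at -0.13 ± 0.34.

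Among the type II and accessory receptors 5 of 6 probes were negative in the shared part, against 53.9% of all probes. Bmpr2, the BMP type II receptor, was so on both of its probes. The probe AK011534 read -2.68, 0.25, -0.93 and -3.15 with ethanol in Cy3, and -0.95, -0.71, -3.68 and -0.12 with ethanol in Cy5, with a shared part of -1.50 ± 0.50 (adjusted p = 0.254). The probe NM_007561 read -0.50, -1.96, -1.23 and -0.82, then -0.52, -0.06, -0.84 and 0.82, with a shared part of -0.64 ± 0.32 (adjusted p = 0.398). Each probe was negative on 7 of 8 arrays, though not on the same ones.

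The probes of Tgfbr2, the TGF-beta type II receptor, went apart. The probe NM_009371 read 1.07, -0.10, 3.17 and 1.20 with ethanol in Cy3 and -3.64, -1.07, -0.28 and -2.11 with ethanol in Cy5. These centred values did not overlap, though those before centring did, and the turning part was -1.56 ± 0.46 (adjusted p = 0.151). The probe AK003861 read 1.00, -1.17, 0.24 and -0.27, then 0.86, 0.46, 0.80 and 2.03, and its turning part was 0.54 ± 0.34 (adjusted p = 0.527), and 0.36 without replicate 2. The turning of the first probe was thus not shared by the second. The activin receptor Acvr2b had wide values, from -4.72 to 2.79 on 7 arrays, with a shared part of -1.10 ± 0.91. The coreceptor Tgfbr3 had a shared part of -0.10 ± 0.69 and a wide range, from -3.32 to 2.75.

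**Figure D3:**
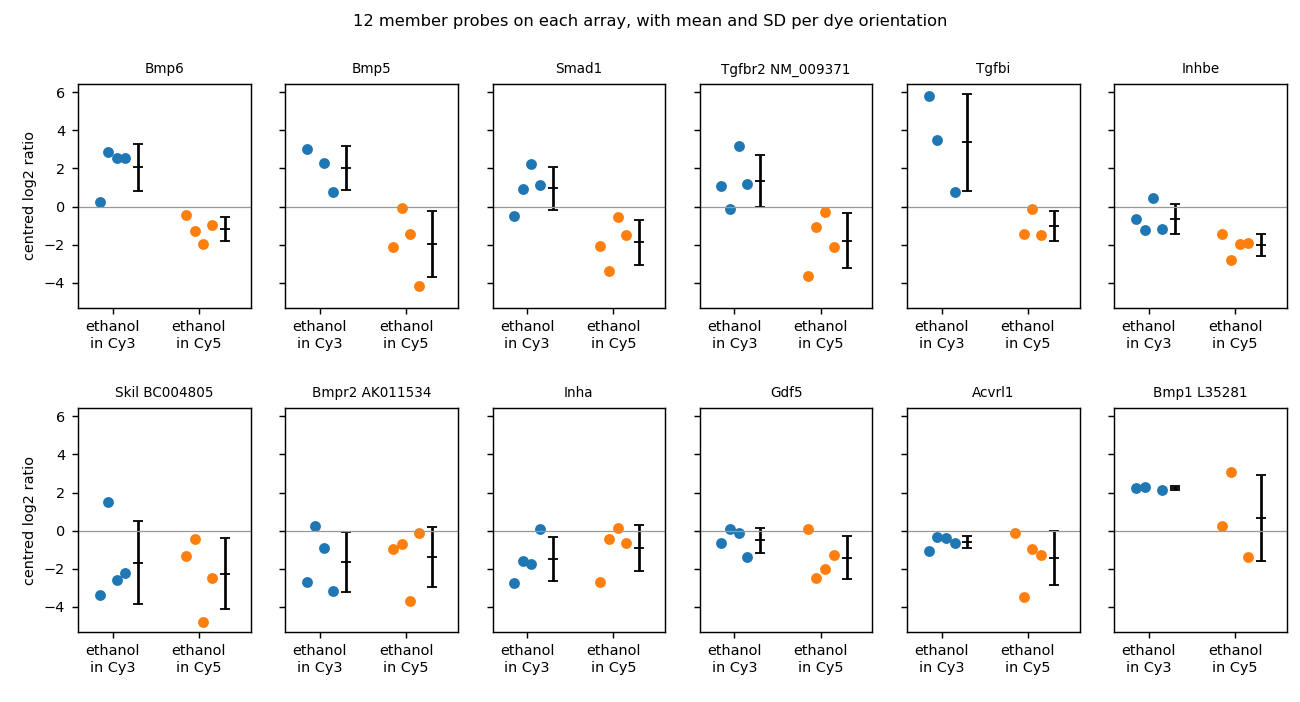
Centred log2 ratio (y axis) on each array for 12 member probes, with ethanol in Cy3 (blue) and in Cy5 (orange), and the mean with SD of each orientation in black. The first 6 probes, from Bmp6 to Inhbe, have orientations that do not overlap after centring. The last 6, from Skil to Bmp1, lie mostly on one side of 0 in both.

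The Smads carry the signal to the nucleus. Smad1, which answers to BMP receptors, read -0.47, 0.94, 2.24 and 1.12 with ethanol in Cy3 and -2.07, -3.39, -0.56 and -1.49 with ethanol in Cy5. After centring every array of the first orientation lay above every array of the second. The closest pair, replicates 1 and 7, stood the other way round before centring. Its turning part was -1.42 ± 0.40 (adjusted p = 0.136), and its adjusted p over 19 alternatives ran from 0.107 to 0.588. The other BMP Smads were Smad5, with a turning part of -0.36 ± 0.42, and Smad9, with -0.89 ± 0.76 on 6 arrays. Smad3, which answers to TGF-beta and activin, read 1.45, -0.25, 0.17 and 0.73, then -1.71, -0.20, 0.17 and -2.26, and its orientations overlapped at a turning part of -0.76 ± 0.37 (adjusted p = 0.401).

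Smad2, the partner of Smad3 on that branch, had a turning part of 0.67 ± 0.38, on the other side from Smad3. The common partner Smad4 was close to 0 in both parts, with a shared part of -0.08 (95% interval -0.86 to 0.70) and a turning part of 0.07 (-0.71 to 0.85). The inhibitory Smad6 read 0.60, -0.07, 2.29 and -0.67 with ethanol in Cy3 and -2.50, 0.97, 0.43 and -1.79 with ethanol in Cy5. It showed no side in either orientation, and its turning part was -0.63 ± 0.48 (adjusted p = 0.628). That value was -0.34 without replicate 3 and -0.33 without replicate 5.

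Ski and Skil encode corepressors that bind Smads and hold their targets off. The Skil probe BC004805 read -3.37, 1.48, -2.59 and -2.21 with ethanol in Cy3 and -1.35, -0.45, -4.77 and -2.47 with ethanol in Cy5. It was negative on 7 of 8 arrays, and its shared part of -1.97 ± 0.61 (adjusted p = 0.232) was the largest of any member in either direction. The -0.45 on replicate 6 was the value of equal channels before the array's constant. The untested Skil probe NM_011386 had values of 3.14, 1.32 and -0.55 on replicates 2 to 4 and -2.19 and -0.77 on replicates 6 and 7. Of the 2 Ski probes 1 was at 0.58 ± 0.28 and the other at -0.39 ± 0.29 in the shared part, and they had the same sign on 2 of 8 arrays.

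**Figure D4:**
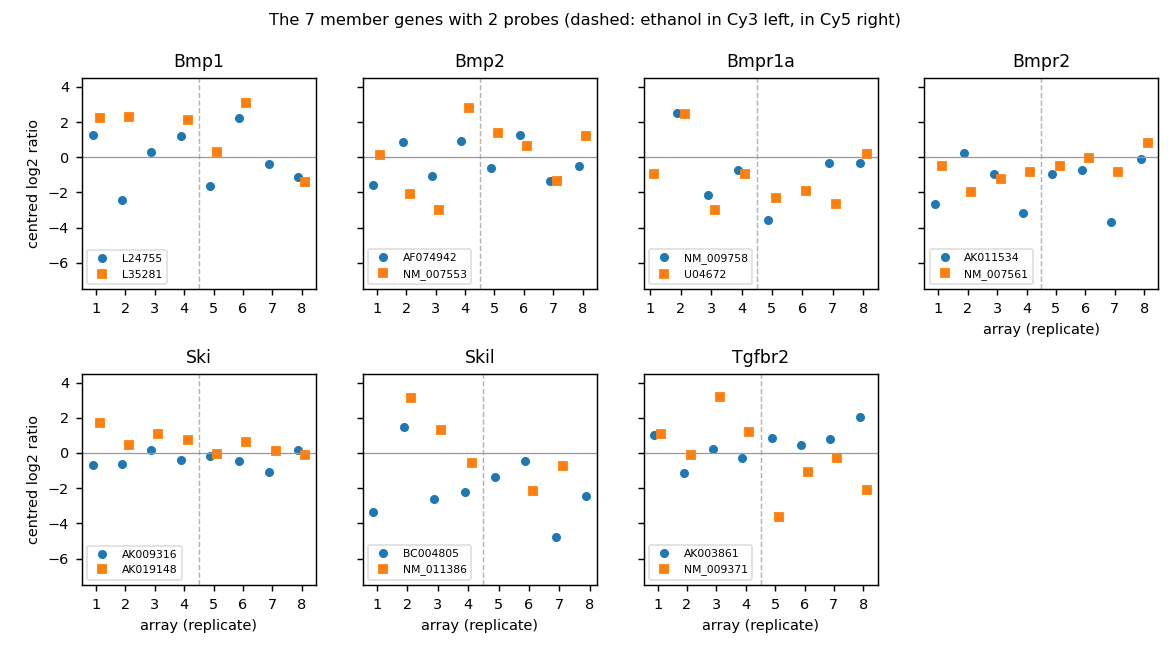
Centred log2 ratio (y axis) on the 8 arrays (x axis) for the 7 member genes with 2 probes, 1 probe as blue circles and the other as orange squares. Bmpr1a probes had the same sign on 5 of 6 arrays with both values, while Ski probes did on 2 of 8 and Tgfbr2 probes on 3 of 8.

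Over the 7 genes with 2 probes, the probes of a gene often read differently on one array. The sign was the same on 6 of 8 arrays for Bmpr2, 4 of 5 for Skil, 4 of 6 for Bmp1 and 4 of 8 for Bmp2. The median difference between probes on an array ran from 0.66 for Bmpr1a to 1.83 for Bmp2, and the largest was 4.74, for Bmp1. Values of a single probe are thus not firm as values of its gene.

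Some members carry the family's name with another function. Tgfbi, an adhesion protein of the matrix that TGF-beta induces, had no value on replicates 3 and 5. It read 5.82, 3.48 and 0.79 with ethanol in Cy3 and -1.45, -0.13 and -1.49 with ethanol in Cy5. All values were positive in one orientation and negative in the other, and the turning part was -2.19 ± 0.63 (n = 6 arrays, adjusted p = 0.163). The 0.79 on replicate 4 was, as on Bmp5, the value of equal channels before the array's constant. The sign of Tgfbi there thus holds no difference between the channels. Bmp1 is a metalloproteinase that cleaves procollagen and Chordin. Its probe L35281 read 2.24, 2.31 and 2.11 with ethanol in Cy3 and 0.27, 3.08 and -1.39 with ethanol in Cy5, a shared part of 1.43 ± 0.57 (n = 6 arrays, adjusted p = 0.32) that was 0.83 without replicate 6.

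The other Bmp1 probe, L24755, read 1.25, -2.43, 0.30 and 1.23, then -1.66, 2.22, -0.38 and -1.13, with a shared part of -0.07 ± 0.54. The agreement of L35281 within the first orientation was not seen on it. Tgfbrap1, a receptor-associated protein, read -0.74, -2.96, -1.18 and 0.40 with ethanol in Cy3 and 0.40, 2.90, -0.70 and 0.46 with ethanol in Cy5. Its turning part was 0.94 ± 0.47 (adjusted p = 0.42), and 0.58 without replicate 6. The kinase gene Bmp2k was at 0.42 ± 0.33 in the shared part.

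In all, 6 of 56 members (10.7%) had orientations that did not overlap, as did 10.9% of all probes. These were Bmp5, Bmp6, Smad1, Tgfbr2, Tgfbi and Inhbe, and on each the centred ratios were lower with ethanol in Cy5. Among all probes 5.21% separated in that direction and 5.68% in the other. Before centring, the orientations overlapped on Bmp6, Smad1, Tgfbr2 and Inhbe, and not on Bmp5 and Tgfbi. The array medians taken off were -0.435 to -0.324 with ethanol in Cy3 and 0.023 to 0.516 with ethanol in Cy5. The share of all probes that separated before centring was not counted. On Bmp5, Bmp6 and Tgfbi, 5.36% of the members, the orientations also had opposite signs after centring, as on 4.29% of all probes. Of these only Tgfbi had opposite signs before centring. The 9 members at an unadjusted p under 0.05 in the shared part were negative for Inhbe, Skil, Bmpr2, Inha, Acvrl1 and Gdf5, and positive for Bmp1, Gdf3 and Gdf1. Among all probes 9.01% were negative and 4.88% positive at that threshold. In the turning part the 6 were negative for Bmp6, Bmp5, Smad1, Tgfbr2 and Tgfbi and positive for Ltbp3, where 5.14% of all probes were negative and 8.69% positive.

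**Figure D5:**
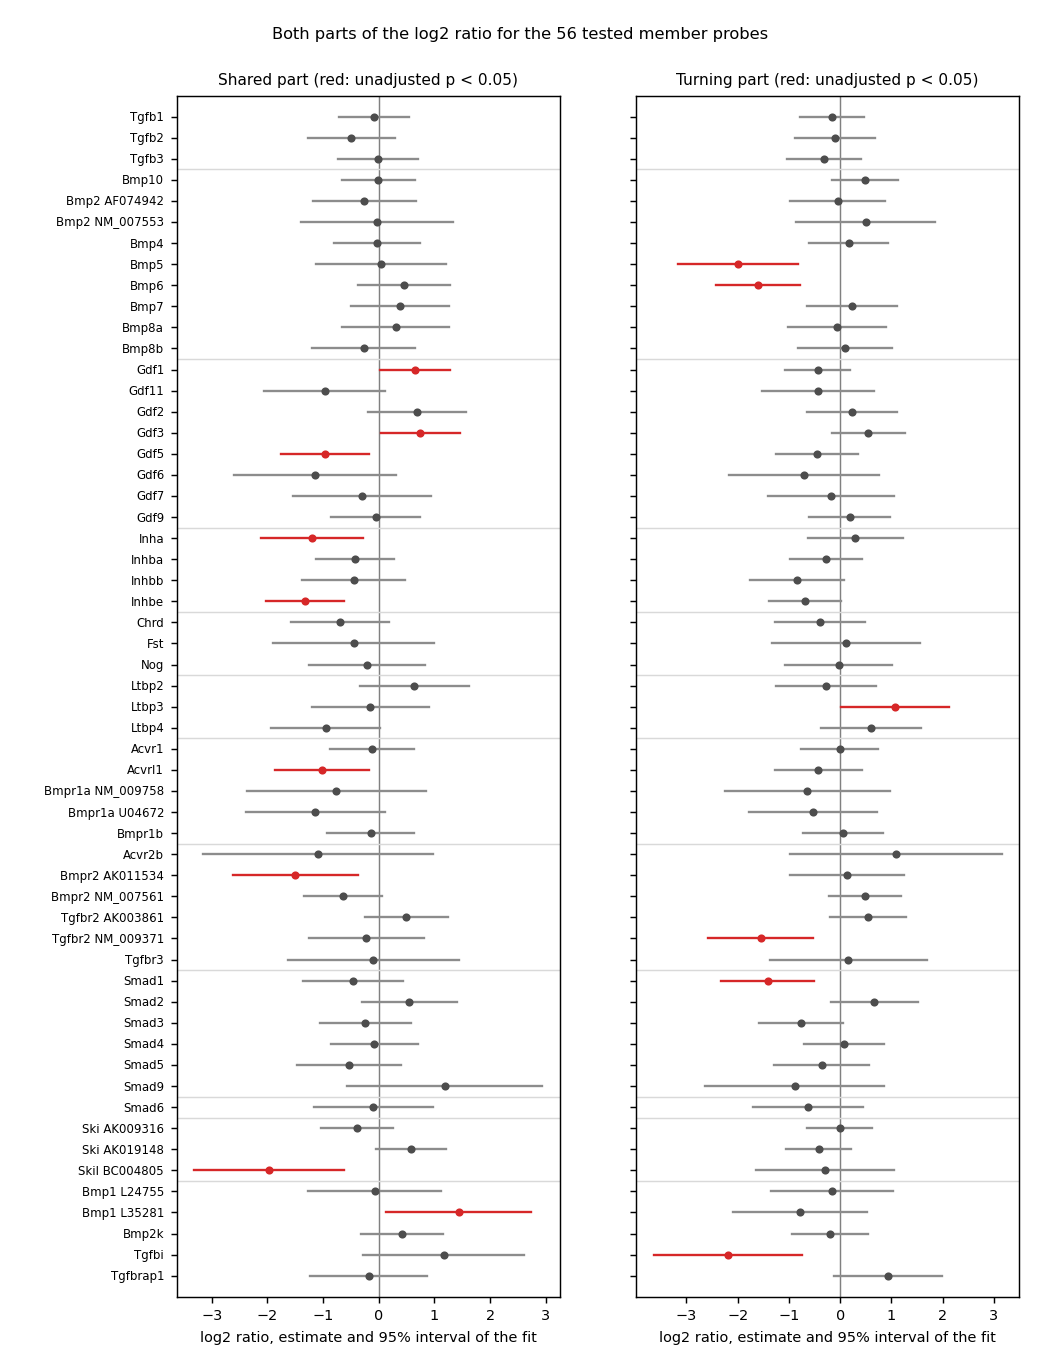
Shared part (left) and turning part (right) of the 56 tested member probes as log2 ratios, with the 95% interval of the fit. The 9 and 6 probes in red had an unadjusted p under 0.05, and none passed after adjustment. Tgfb1 and Smad4 lie near 0 in both panels.

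Other genes of the pathway were read from 3 lists. Of the extracellular modulators outside the family 17 probes were tested, with a shared median of -0.20 and a turning median of 0.11. Rgmb, a coreceptor for BMPs also known as Dragon, was the only one to pass. It read -1.86, -1.35 and -1.53 with ethanol in Cy3 (replicates 2 to 4) and 2.40, 4.90 and 2.72 with ethanol in Cy5 (replicates 5, 7 and 8). The 3 values of each orientation lay far from those of the other, and the turning part was 2.46 ± 0.43 (n = 6 arrays, adjusted p = 0.0353). The call ended, with the value between 2.07 and 2.70, without any one of replicates 2, 3, 4, 5, 7 and 8 (adjusted p 0.0534 to 0.118). In the shared part the protease gene Tll1, a relative of Bmp1, was at 1.68 ± 0.49 (adjusted p = 0.232) and the fibrillin Fbn2 at -1.48 ± 0.50 (adjusted p = 0.254), while Amh was at 0.72 ± 0.34 in the turning part (adjusted p = 0.393). Of the 17, no others but Rgmb, Tll1 and Fbn2 had an unadjusted p under 0.05, which 13.9% of all probes had in the shared part and 13.8% in the turning part.

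Of the Smad partners and regulators 26 probes were tested and none passed. At an unadjusted p under 0.05 there were 2 positive and 6 negative of 26 in the shared part, where 4.88% and 9.01% of all probes were, and 1 positive in the turning part, where 13.8% of all probes reached it. Their shared median was -0.37, with 18 of 26 negative (53.9% of all probes), and their turning median 0.18. The adaptor gene Dab2 was at -2.15 ± 0.48 (adjusted p = 0.169) and negative on 8 of 8 arrays, and the coactivator Ep300 at -1.20 ± 0.38 (adjusted p = 0.238). In the turning part the phosphatase Ppm1a was at 1.06 ± 0.43 on 1 probe (adjusted p = 0.307) and -0.26 ± 0.76 on the other, and the kinase Map3k7 at 0.70 ± 0.40 (adjusted p = 0.487), and at 0.47 without replicate 8.

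Of the target genes 24 probes were tested and none passed, with a shared median of -0.14 and a turning median of 0.01. The BMP targets of the Id family stood on different sides in the shared part. Id2 read between -2.27 and -0.08 and was negative on 8 of 8 arrays, at -1.26 ± 0.31 (adjusted p = 0.180). Id4, at -1.29, was negative on 6 of 8 arrays, Id1, at -0.68, on 3 of 8, and Id3 was positive on 7 of 8, at 1.23. Gata2 was at -1.01 ± 0.35 (adjusted p = 0.262). At an unadjusted p under 0.05 there were 1 positive and 3 negative targets of 24 in the shared part, and 1 positive and 2 negative in the turning part, where 13.9% and 13.8% of all probes reached it. In the turning part Tgm2 was at -0.84 ± 0.34 (n = 7 arrays, adjusted p = 0.313) and Dlx5 at 1.14 ± 0.46 (n = 6 arrays, adjusted p = 0.327).

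Cell type markers were read beside these values. The shared median was -0.84 for 8 astrocyte probes, -0.18 for 9 neuron probes, 0.53 for 11 neural progenitor probes and -0.09 for 8 probes of non-neural cells. Of these probes 7, 6, 3 and 5 in turn were negative, against 53.9% of all probes. The turning medians were -0.40, -0.0017, -0.04 and -0.08 in the same order. No marker passed in either part. The smallest adjusted p was 0.0572, for a turning part of 3.82 on 1 probe of the progenitor gene Pax6, which passed under 6 of 19 alternatives, while the other Pax6 probe was at 0.56 (adjusted p = 0.727). The astrocyte gene S100b passed in the turning part under 1 of 19 alternatives, without centring (1.56, adjusted p = 0.0494). The part of cell composition in the members' values was not tested.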

How the data were processed

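RNA of control and ethanol-exposed neurospheres was hybridised together on 8 two-colour arrays. The authors deposited 1 log2 ratio per probe and array; its background correction, normalization and numerator are steps that no source used here gives. Below a ratio of 0.1 every value was, within 0.0011, the log2 of a ratio in steps of 0.001 plus 1 constant per array. Exact 0 (2565 to 5200 values per array) and each array's highest value, a ratio of 100000 plus that constant (108 to 464 values), were taken as not computable and left out. The members' 64 probes had 46 and 5 such values of 512. Values of equal channels before the constant were kept, and several probes shared them on an array. After centring they read 0.788 on replicate 4, as for Bmp5, Tgfbi and Tgfbr1, and -0.448 on replicate 6, as for Skil and Snai1. How many values were of this kind was not counted. Arrays were centred on their medians, which ran from -0.435 to 0.516. The 15345 tested probes were fitted with limma 3.58.1 (R 4.3.3) with both parts as coefficients, and p-values adjusted by Benjamini-Hochberg over all of them. SEs and 95% intervals are those of the moderated fit. Simulated data checked its mean estimates of known changes, and not the width of these intervals.

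Symbols came from the platform's annotation, which is old, and were updated by Entrez number; 15957 of 16635 probes with 1 symbol matched, and no member's symbol changed. Promoter sequences were matched for 41 of 57 genes. Members and lists were chosen with earlier results of these data known. Values on every array are given for the 10 members with the smallest p in each part, the smallest of each role, and other tested probes of those genes; from the other pathway lists those that passed and the 2 with the smallest p in each part are named. Tgfb1 and the Id genes were added after their values were seen. The numbers 3, 5 and 1 in the array code were present in both orientations. Deviations of same-numbered arrays from their orientation's mean correlated at 0.016, -0.035 and 0.040 over 10486 probes. These values cannot show whether same-numbered arrays shared RNA, since the noise of single arrays could hide it. The arrays were treated as unpaired. Alternatives covered centring, scaling, missing values, filters, weights, moderation, the code number as a block, averaging probes, and leaving out arrays.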

Additional observations from a re-analysis of the deposited data

Results flagged for a closer look

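In 5 of 44 groups of 4 arrays examined, 1 array of the named members lay far from the other 3, where chance gives about 1 in 20. All 5 had ethanol in Cy3. Bmp6 read 0.23 on replicate 1 against 2.55 to 2.87 on the others, and its turning part of -1.60 became -1.91 without that array. Gdf1 read 0.49 on replicate 4 against 1.24 to 1.37, and Gdf3 read -1.10 on the same array against 0.51 to 0.73. On replicate 2, Inhbb read -1.54 against 0.85 to 1.15, and Ltbp4 read -3.90 against -0.96 to -0.43.

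In 4 genes the dye orientations lay on opposite sides of 0 on every array after centring, or the difference passed the test. Before centring the opposite signs of Bmp5 and Bmp6 did not hold on every array. Bmp5 had a turning part of -1.99 (adjusted p = 0.116), Bmp6 -1.60 (adjusted p = 0.0694) and Tgfbi -2.19 (adjusted p = 0.163), none of which passed. Rgmb, a BMP coreceptor outside the member list, had 2.46 (adjusted p = 0.0353). The dye orientation and any other difference between the arrays of replicates 1 to 4 and 5 to 8 cannot be told apart. Whether these turning parts, that of Rgmb included, held an ethanol effect or a difference between the dyes was not tested.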

How the results depend on the processing

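Over 19 alternatives, 986 of 1010 recomputed values of named probes kept their direction and their side of the threshold. Only Rgmb had passed in the main fit, so for all other values keeping their side meant that they still did not pass. Rgmb lost its call under 9 of 17 alternatives. Only 1 of 54 values changed sign, the turning part of the Bmp1 probe L24755 (-0.16), which read 0.16 without centring, 0.081 with exact 0 kept, 0.33 without the 3 arrays whose code ends in r, and -0.58 to 0.073 when single arrays were left out. The cause was not tested. The count of all probes that passed in the turning part, 239, was 417 without centring, 79 without the r arrays and 144 to 192 without single arrays, the fewest without replicate 8. In the shared part it was 0 without any single array and 1 with each array's highest value kept. Members that passed in the turning part numbered 1, Bmp6, when values on all 8 arrays were required, where fewer probes were tested, and 0 to 1 without single arrays. Members at an unadjusted p under 0.05 in the turning part, 6, numbered 12 without centring, 12 with exact 0 kept, 3 without the r arrays and 5 to 10 without single arrays (10 without replicate 7). In the shared part the 9 became 5 to 10 (5 without replicate 6). The members' median in the turning part was 0.16 without centring. Rgmb's call also ended with exact 0 kept (adjusted p = 0.106), with the highest values kept (0.0645) and with probes of 2 values per orientation added (0.0528). Pax6 passed under 6 of 19 alternatives, with the lowest adjusted p, 0.00121, without replicate 3. With the array code number as a random replicate block no call of a member changed and 242 probes passed in the turning part. The 8 arrays, whose intensities are not known, limit the precision.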

Other observations

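Before the constant that the deposited values carry for each array, the median log2 ratios were -1.31 to -0.58 on replicates 1 to 4 (ethanol in Cy3) and 0.05 to 0.71 on replicates 5 to 8 (ethanol in Cy5). The medians were thus negative in one dye orientation and positive in the other, though on replicate 7 the median was close to 0. In the limma fit 239 probes passed an adjusted p of 0.05 in the turning part and 0 in the shared part. Whether the dyes or ethanol made the array medians and these probes turn was not tested. The members' own medians after centring were -0.20, -0.09, 0.20 and -0.08 on replicates 1 to 4 and -0.45, -0.21, -0.56 and -0.36 on replicates 5 to 8.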
